A study of Petunia x hybrida with 6 samples.

Results

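Among the genes transcribed in the petunia corolla, 193 genes lay beside a neighbour that differed between 7PM and 7AM in the same direction, both by at least 3-fold. They were selected on the measured levels: genes with a mean of 2 or more and below 200 CPM (counts per 1000000 counts of the scaled library) at 7PM and at 7AM were put in the order given by the scaffold and the gene number in their IDs, and both genes of an adjacent pair on 1 scaffold were kept where the ratio of mean CPM, 7PM over 7AM, was at least 3-fold up in both or at least 3-fold down in both. Of 35812 IDs in the deposited table, 17515 held 60 or more counts over the libraries, 13004 of these fell in the level window and could be ordered, and the 193 members were 1.48% of the ordered genes. The members comprised 101 genes higher at 7PM, in 54 pairs, and 92 genes lower at 7PM, in 47 pairs. They lay on 85 scaffolds. Because the levels at both times chose the members, the direction and size of their change are given as a description and are not tested.

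The libraries came from corollas, the ring of petals, of Petunia x hybrida cultivar Mitchell, with 3 libraries from 7PM and 3 from 7AM. Plants of both groups were kept in a greenhouse with 14 h of light, on at 6 AM and off at 8 PM, and 10 h of dark. No mutant, transgene or treatment is named in the labels for either time. Replicates are numbered in the labels with no word on whether each was a separate plant, so the spread between them may be technical. Total counts were 17410929 to 18040038 at 7PM and 16497054 to 17277765 at 7AM. The scale factors by which library sizes were multiplied (TMM, the trimmed mean of M values) were 0.854 to 0.892 at 7PM and 1.13 to 1.16 at 7AM, so that the choice of scaling bears on which genes pass a 3-fold limit.

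Genes that sit beside each other on a plant chromosome can be copies that arose by tandem duplication, can share regulatory DNA or a stretch of open chromatin, or can belong to a cluster of genes for 1 metabolic pathway. In flowers that are scented at night, as Mitchell is, many transcripts follow the daily cycle under the circadian clock. The table pairs no ID with a name, a function, a strand or a coordinate, so no role is given for any gene here. Order along a scaffold rests on the numbers in the IDs. In the table these numbers never stepped down within a scaffold among IDs with the letter g, and pairing genes in the deposited order gave the same members. A table sorted by ID would give both in any case, so neither shows that the numbers follow the order of genes on the DNA. Whether the 2 genes of a pair are copies or pieces of the same transcript was not tested. Reads of near-identical copies may have been lost or split between them in the authors' counting, which makes the level of such copies uncertain.

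Adjacent genes that both changed by 3-fold went in the same direction in 101 pairs and in opposite directions in 69. The 13004 ordered genes formed 11771 adjacent pairs. Both genes were at least 3-fold higher at 7PM in 54 pairs and at least 3-fold lower in 47, while in 69 pairs 1 gene was 3-fold higher and the other 3-fold lower. Same-direction pairs thus made up 59.4% of the 170 pairs in which both genes changed by 3-fold. In a further 2234 pairs exactly 1 gene changed by that much, and in 9367 pairs neither did. Over all ordered genes 688 were at least 3-fold higher at 7PM (5.29%) and 735 at least 3-fold lower (5.65%), so the members were 14.7% of all genes past the limit upwards and 12.5% of those past it downwards.

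Seen from the single gene, the neighbours of genes that were 3-fold higher at 7PM were themselves 3-fold higher in 108 of 1245 cases (8.67%) and 3-fold lower in 69 (5.54%). Neighbours of genes that were 3-fold lower at 7PM were 3-fold lower in 94 of 1329 cases (7.07%) and 3-fold higher in 69 (5.19%). Neighbours of genes that did not change by 3-fold were higher in 5.09% and lower in 5.56% of 20968 cases. Both shares of neighbours that went the same way were thus above those over all ordered genes, while the shares that went the opposite way lay near them. These shares come from the contrast that chose the members, and their difference was not tested.

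The pairs did not all rest on evenly matched replicates. Leaving out each library in turn, 51 of the 101 same-direction pairs remained in all 6 settings (25 higher and 26 lower at 7PM), as did 46 of the 69 opposite pairs, so the share in the same direction was 52.6% among the pairs that remained. With 1 library left out and the rule applied afresh, that share was 54.9% (without 7PM replicate 1) to 58.8% (without 7AM replicate 1). Of the 193 members, 101 remained under every such setting and 30 were lost in 3 or more of the 6. The median log2 ratio of all counted genes was -0.05 under TMM and -0.44 when libraries were scaled to their totals alone. With library totals the rule gave 47 genes higher and 224 lower at 7PM (17.3% higher), against 52.3% higher under TMM, and the share of same-direction pairs was 63.8%. Over all settings that share was lowest, at 52.1% (49 pairs in the same and 45 in opposite directions), where both means had to reach 5 CPM, and highest, at 64.1%, with no upper limit on level.

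Most pairs stood alone. The 54 pairs higher at 7PM formed 47 runs of consecutive ordered genes, of which 41 held 2 genes, 5 held 3 and 1 held 4. The 47 pairs lower at 7PM formed 45 runs, with 43 of 2 genes and 2 of 3. Of the scaffolds with members, 7 carried 2 runs, and on 6 of those 7 (scaffolds 17, 45, 47, 286, 332 and 540) 1 run was higher and the other lower at 7PM. On scaffold 618 both runs, with 5 members together, were higher.

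**Figure D1:**
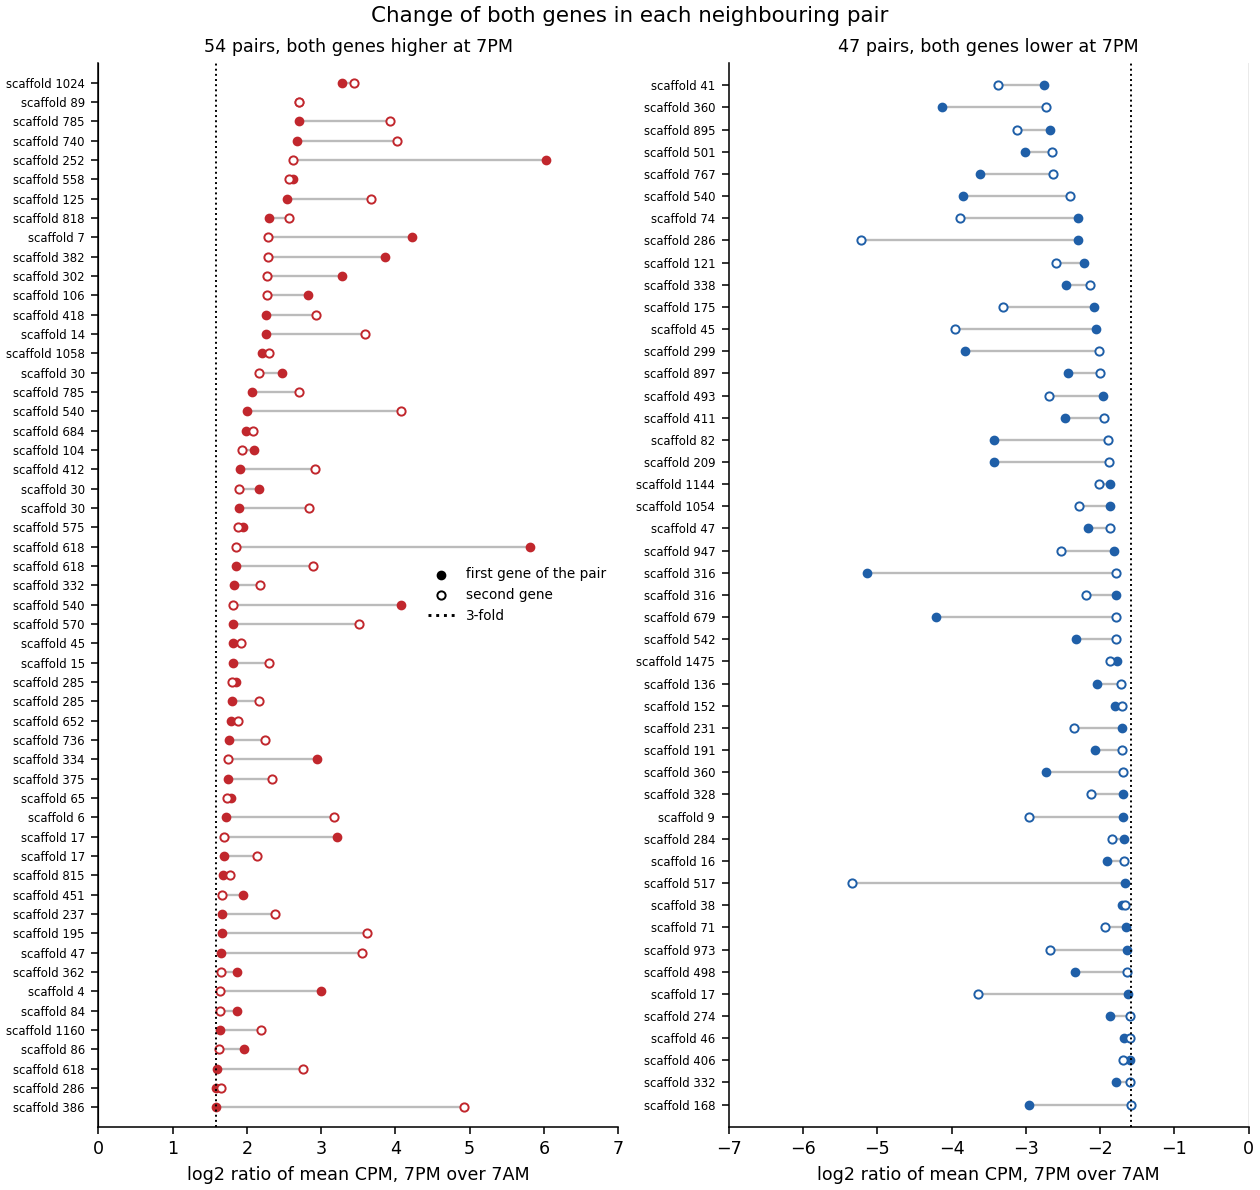
Log2 ratio of mean CPM, 7PM over 7AM, of both genes in each of the 54 pairs higher at 7PM (left) and the 47 pairs lower at 7PM (right), 1 line per pair, sorted by the smaller change; filled points are the first gene in ID order and open points the second, and the dotted line is 3-fold. In 32 of the 54 and 30 of the 47 pairs the changes of the partners lie within 2-fold of each other, and the longest line, on scaffold 618, joins changes of 56.5-fold and 3.62-fold.

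The size of the change differed widely among members. Fold changes of the genes higher at 7PM ran from 3.00 to 65.5 with a median of 4.54, and of those lower at 7PM from 3.00 to 40.5 with a median of 4.13. Of the 101 genes higher at 7PM, 44 changed less than 4-fold, 38 changed 4- to 8-fold, 13 changed 8- to 16-fold and 6 changed more. Of the 92 genes lower at 7PM the numbers in these classes were 42, 33, 12 and 5. The window of 2 to 200 CPM limits any fold change here to less than 100-fold. Genes past 3-fold with no such neighbour had medians of 4.71-fold (587 genes higher at 7PM) and 4.48-fold (643 genes lower), close to the members.

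Partners differed in size of change about as much as members taken from different scaffolds. The log2 changes of partners differed by a median of 0.57 in pairs higher at 7PM and 0.55 in pairs lower at 7PM, against 0.61 and 0.60 for members of the same direction on different scaffolds. Across the 54 pairs higher at 7PM the log2 changes of the first and the second gene had a Spearman rho of -0.03, and across the 47 pairs lower at 7PM 0.03. These are correlations across pairs from the same 6 libraries and describe them only. Levels of partners, read as CPM without correction for gene length, differed by a median of 2.30-fold at 7PM and 2.27-fold at 7AM in the pairs higher at 7PM, and by 2.12-fold at 7PM and 1.86-fold at 7AM in the pairs lower at 7PM. For members on different scaffolds the medians were 2.48-fold at 7PM and 2.25-fold at 7AM among genes higher at 7PM, and 2.27-fold at 7PM and 2.52-fold at 7AM among genes lower at 7PM.

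The pair with the largest change in its less changed gene, among those higher at 7PM, consisted of Peaxi162Scf01024g00007 and Peaxi162Scf01024g00009 on scaffold 1024, whose numbers differ by 2. Peaxi162Scf01024g00007 had 44.5, 50.5 and 47.4 CPM in 7PM replicates 1 to 3 and 4.45, 6.71 and 3.47 CPM in 7AM replicates 1 to 3. Peaxi162Scf01024g00009 had 117.9, 122.3 and 140.5 CPM at 7PM and 12.6, 13.6 and 8.82 CPM at 7AM. For both genes each 7PM library lay above every 7AM library by a wide margin, and both were highest in replicate 2 and lowest in replicate 3 within 7AM. Peaxi162Scf01024g00007 averaged 47.5 ± 3.00 CPM at 7PM and 4.88 ± 1.66 CPM at 7AM (SD, n = 3 each), a 9.74-fold difference with an edgeR log2 fold change of 3.28 ± 0.28 (SE). Each SE, here and below, comes from the variances of log2 CPM at both times and not from the edgeR fit. Peaxi162Scf01024g00009 averaged 126.9 ± 11.98 CPM at 7PM and 11.7 ± 2.53 CPM at 7AM (SD, n = 3 each), a 10.9-fold difference with an edgeR log2 fold change of 3.44 ± 0.21 (SE). This was the 1 pair of the 54 in which both genes changed by more than 8-fold. In 17 pairs both changed by at least 4-fold.

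Among pairs lower at 7PM the corresponding genes were Peaxi162Scf00041g00016 and Peaxi162Scf00041g00054 on scaffold 41, whose numbers differ by 38. Peaxi162Scf00041g00016 had 10.3, 17.8 and 13.1 CPM in the 7PM libraries and 90.3, 100.6 and 87.2 CPM in the 7AM libraries. Peaxi162Scf00041g00054 had 10.4, 7.67 and 10.95 CPM at 7PM and 96.5, 104.1 and 100.8 CPM at 7AM. The groups lay far apart for both genes, whose 7AM levels were nearly equal. At 7PM replicate 2 was the highest library for Peaxi162Scf00041g00016 and the lowest for Peaxi162Scf00041g00054. Peaxi162Scf00041g00016 averaged 13.8 ± 3.79 CPM at 7PM and 92.7 ± 7.02 CPM at 7AM (SD, n = 3 each), 6.74-fold lower at 7PM with an edgeR log2 fold change of -2.75 ± 0.24 (SE). Peaxi162Scf00041g00054 averaged 9.67 ± 1.75 CPM at 7PM and 100.5 ± 3.83 CPM at 7AM (SD, n = 3 each), 10.4-fold lower with an edgeR log2 fold change of -3.37 ± 0.16 (SE). In 0 of the 47 pairs were both genes 8-fold lower, and in 14 both were at least 4-fold lower.

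Other pairs higher at 7PM ranged from partners closely matched in fold change to very uneven partners. On scaffold 89 the genes have consecutive numbers, and their fold changes of 6.53 and 6.51 were the closest of any pair. The first had 21.5, 25.03 and 20.1 CPM at 7PM and 4.25, 2.71 and 3.26 CPM at 7AM, and the second had 45.8, 48.1 and 38.2 CPM at 7PM and 6.27, 6.87 and 7.14 CPM at 7AM. By their means the second gene stood at 1.98 times the first at 7PM and 1.99 times at 7AM, which follows from the equal fold changes. Single libraries did not run together in this pair: deviations of the partners from the mean of their time had r of 0.03. On scaffold 252, by contrast, the first gene had 202.1, 160.4 and 197.5 CPM at 7PM and 2.38, 2.08 and 4.10 CPM at 7AM, a 65.5-fold difference and the largest among the members. Its neighbour had 30.5, 31.6 and 26.7 CPM at 7PM and 4.45, 4.11 and 5.88 CPM at 7AM, a 6.15-fold difference. The pair on scaffold 386 set the lower edge of the rule, since its first gene differed by 3.00-fold (53.3 ± 9.92 CPM at 7PM and 17.8 ± 2.47 CPM at 7AM, SD, n = 3 each) while its neighbour differed by 30.3-fold.

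Among the other pairs lower at 7PM, the gene with the largest change lay on scaffold 517. It had 0.871, 2.42 and 3.80 CPM in the 7PM libraries and 103.0, 99.2 and 85.4 CPM in the 7AM libraries, 40.5-fold lower at 7PM, and its neighbour was 3.18-fold lower. On scaffold 286 the second gene of the pair had 1.74, 2.69 and 2.16 CPM at 7PM and 77.7, 88.1 and 79.8 CPM at 7AM, 37.2-fold lower. Its partner had 4.85, 5.72 and 4.46 CPM at 7PM and 22.8, 26.2 and 24.6 CPM at 7AM, 4.90-fold lower. In all 4 genes of these pairs every 7PM library lay below every 7AM library. The pair on scaffold 501, with consecutive numbers, was evenly matched, at 8.04-fold and 6.29-fold lower at 7PM.

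Runs of 3 or 4 genes showed both steady and unsteady replicates. On scaffold 285 every 7PM library lay above every 7AM library for all 3 genes. The first had 169.4, 182.2 and 215.9 CPM at 7PM and 51.8, 52.4 and 52.8 CPM at 7AM, and the other two were 3.48-fold and 4.47-fold higher at 7PM. On scaffold 618 the first of 3 genes had 185.1, 111.2 and 234.5 CPM at 7PM and 3.54, 2.03 and 3.83 CPM at 7AM, 56.5-fold higher, while its consecutive neighbour was 3.62-fold and the third gene 7.43-fold higher. At both times replicate 2 was the lowest library of the first and the third gene.

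On scaffold 785 the 3 genes were 4.19-fold, 6.49-fold and 15.2-fold higher at 7PM. The third of them had 50.8, 97.9 and 47.0 CPM at 7PM and 4.75, 3.23 and 4.88 CPM at 7AM. All 3 genes had their highest level in 7PM replicate 2, with 21.7, 64.9 and 97.9 CPM there against at most 12.3, 38.6 and 50.8 CPM in the other 7PM libraries. On scaffold 17 the 3 genes were 9.27-fold, 3.24-fold and 4.41-fold higher, and on scaffold 540 they were 3.99-fold, 16.8-fold and 3.53-fold higher. The third gene on scaffold 17 was uneven, with 99.0, 136.9 and 292.9 CPM at 7PM and 34.4, 37.8 and 47.8 CPM at 7AM. Its ratio was 3.03 without 7PM replicate 3, and it stayed a member in 4 of the 6 settings that leave out a library.

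The longest run, 4 genes on scaffold 30 with numbers spanning 6, depended on 1 library for all of its genes. Its first gene had 14.4, 5.92 and 68.1 CPM in 7PM replicates 1 to 3 and 5.36, 5.52 and 4.99 CPM in 7AM replicates 1 to 3. The fourth gene had 23.6, 12.7 and 103.6 CPM at 7PM and 6.07, 7.75 and 5.72 CPM at 7AM. The second and the third gene had 35.2 and 17.2 CPM in 7PM replicate 3, and both had 1.82 CPM in 7PM replicate 2, which lay within or near their 7AM range of 1.89 to 4.21 and 1.21 to 3.49 CPM. In all 4 genes 7PM replicate 3 was far above every other library and 7PM replicate 2 was the lowest of its time. Without 7PM replicate 3 the ratios of 7PM to 7AM were 1.95, 1.10, 1.46 and 2.84, so none of the 4 would have been a member. The third gene also lay near the lower limit of 2 CPM, with a 7AM mean of 2.09 CPM. Its level was 3.49 CPM in 7AM replicate 2, but 1.57 and 1.21 CPM in 7AM replicates 1 and 3. It stayed a member in 4 of the 6 settings that leave out a library.

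The 2 runs of 3 genes lower at 7PM lay on scaffolds 316 and 360. On scaffold 360 the first gene had 4.29, 4.98 and 8.85 CPM at 7PM and 103.0, 111.0 and 102.4 CPM at 7AM, 17.5-fold lower at 7PM, and the other two were 6.62-fold and 3.23-fold lower. The second and the third gene, with 23.3, 32.1 and 30.4 CPM and 23.2, 31.0 and 27.8 CPM at 7PM, had nearly the same levels there, but 197.0, 202.3 and 168.4 CPM against 89.00, 93.7 and 82.2 CPM at 7AM. On scaffold 316 the first gene was 35.2-fold lower at 7PM, with 2.67, 2.42 and 5.31 CPM at 7PM and 124.1, 96.7 and 145.7 CPM at 7AM, and the other two were 3.44-fold and 4.58-fold lower. In both runs every 7PM library lay below every 7AM library for all genes.

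**Figure D2:**
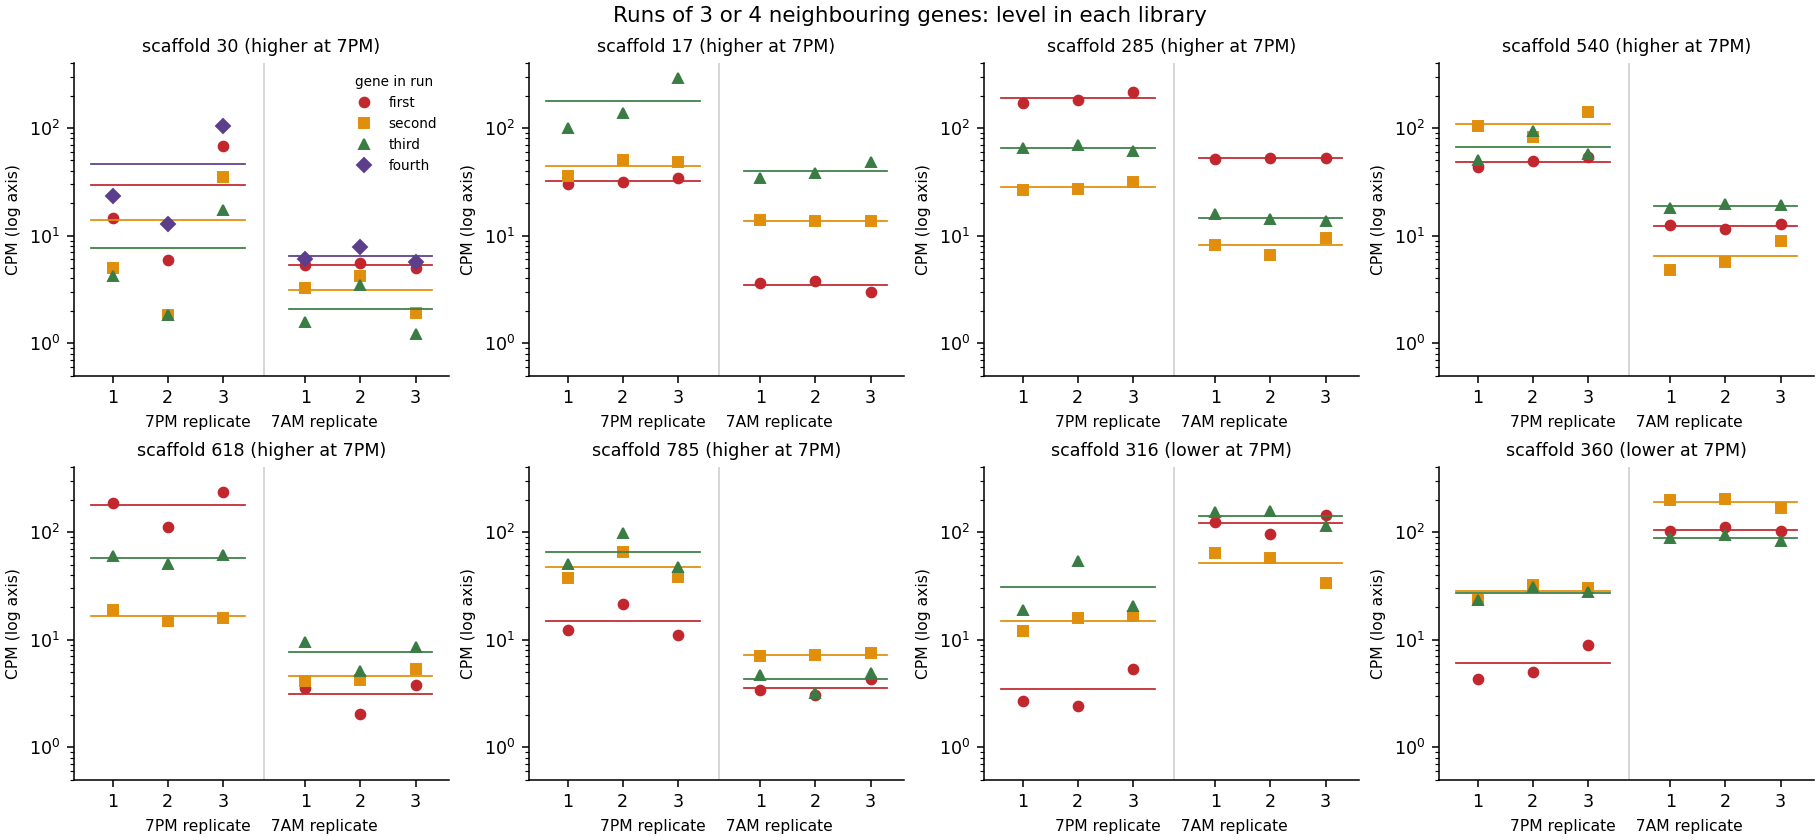
CPM (log axis) of each gene in the 8 runs of 3 or 4 neighbouring genes, in 7PM replicates 1 to 3 (left of each panel) and 7AM replicates 1 to 3 (right); symbols mark the place of the gene in the run and horizontal lines are the means of the 3 libraries. On scaffold 30 all 4 genes are high in 7PM replicate 3 alone (17.2 to 103.6 CPM), whereas on scaffold 285 every 7PM value of a gene lies above all of its 7AM values.

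Partners that changed in the same direction had closer numbers than partners that changed in opposite directions, as a description without a test. The numbers of partners differed by a median of 6 in pairs higher at 7PM (range 1 to 9274) and 5 in pairs lower at 7PM (range 1 to 201), against 12 in opposite pairs and 8 in all adjacent pairs. Partners had consecutive numbers in 9 of 54 pairs higher at 7PM (16.7%), in 12 of 47 pairs lower at 7PM (25.5%), in 8 of 69 opposite pairs (11.6%) and in 18.4% of all adjacent pairs. Differences of up to 10 were found in 60.4% of the same-direction pairs, 46.4% of the opposite pairs and 54.2% of all adjacent pairs. The value of 9274 came from scaffold 618, where the number of the second gene is above 10000, as in 307 IDs of the table with the letter g. The table does not say what such numbers mark, nor how a difference in number relates to a distance in bases. A difference in number does not count the genes between either. On scaffold 14 the partners differ by 199 with no other ID with the letter g between them. On scaffold 540 a pair higher at 7PM differs by 10 with 4 IDs between.

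Among pairs in which both genes changed by 3-fold, the share in the same direction was 72.4% at consecutive numbers (9 higher, 12 lower and 8 opposite), 62.5% at differences of 2 to 10 (22, 18 and 24), 48.5% at 11 to 50 (10, 6 and 17), 56.7% at 51 to 150 (8, 9 and 13) and 50% above 150 (5, 2 and 7). The counts in the wider classes are small, and the highest class holds 14 such pairs. The wider classes also include partners with no other ID with the letter g between them, so they are classes of number only. Counting places in the order instead, the share in the same direction was 59.4% for neighbours, 55.6% for genes 2 places apart, 47.7% at 3 places, 50.8% at 4 and 46.8% at 5. Pairs with both genes higher at 7PM made up 0.459% of all pairs of neighbours, 0.401% at 2 places and 0.17% at 5 places, whereas for pairs lower at 7PM the values were 0.399%, 0.336% and 0.364%. No test was made of these differences, and pairs that share a gene are not independent.

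**Figure D3:**
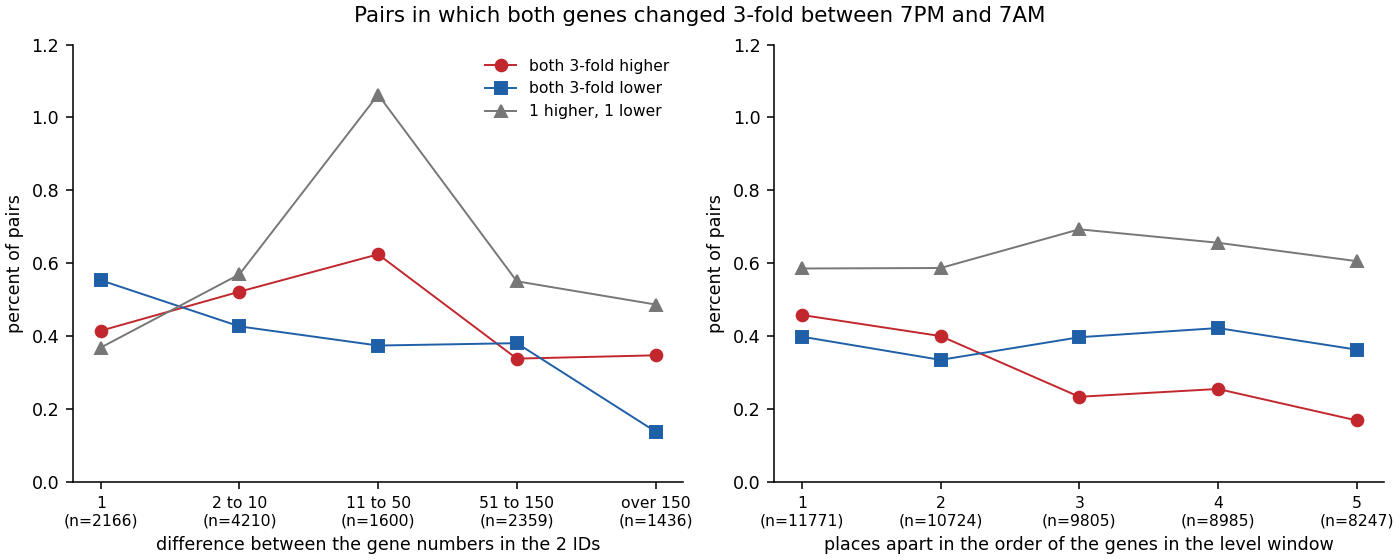
Percent of pairs in which both genes were 3-fold higher at 7PM, both 3-fold lower, or 1 higher and 1 lower, for adjacent pairs by the difference between the numbers in their IDs (left) and for pairs 1 to 5 places apart in the order of eligible genes (right), with the number of pairs under each point. Opposite pairs outnumber each of the same-direction kinds except at consecutive numbers, where both lower stands at 0.554%, both higher at 0.416% and opposite at 0.369%.

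Partners need not be immediate neighbours in the table, since IDs with fewer than 60 counts or outside the level window were passed over. No other ID with the letter g lay between the partners in 25 of the 54 pairs higher at 7PM and 26 of the 47 pairs lower at 7PM (46.3% and 55.3%, against 49.9% of all adjacent pairs). Between the partners of pairs higher at 7PM lay 84 IDs, of which 32 had no count in any library, 29 held fewer than 60 counts, 17 were below 2 CPM at 1 time or both and 6 reached 200 CPM. Of the 23 with 60 or more counts, 1 was 3-fold higher and 6 were 3-fold lower at 7PM. Between the partners of pairs lower at 7PM lay 40 IDs, 12 of them with 60 or more counts, and of these 6 were 3-fold lower and 2 were 3-fold higher at 7PM. By the rule, the passed-over IDs held fewer than 60 counts or lay outside the level window.

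Most genes at the edge of a run, 67 of 84 and 62 of 81, changed by less than 2-fold. Of the 84 ordered genes that flanked a run higher at 7PM, 4 were 2-fold higher and 13 were 2-fold lower at 7PM (4.76% and 15.5%), against 10.2% and 12.1% of all ordered genes. Of the 81 genes that flanked a run lower at 7PM, 11 were 2-fold lower and 8 were 2-fold higher (13.6% and 9.88%). By construction no flanking gene can be past 3-fold in the direction of its run, which lowers the first of these numbers in each case. The median log2 ratio of flanking genes was 0.00 beside runs higher at 7PM and -0.22 beside runs lower at 7PM, where 54 of 81 genes were lower at 7PM, and that of all ordered genes was -0.05.

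Deviations of single libraries from the mean of their own time were set side by side for partners, as a description. They are not independent of the choice of pairs, because the rule takes arithmetic means and a library that is high in both partners raises both ratios. Deviations were taken on log2 CPM with a prior count of 2. Over the 54 pairs higher at 7PM, deviations of the partners had a Spearman rho of 0.41 at 7PM and 0.38 at 7AM, and the same sign in 64.8% and 66.7% of 162 pairs of values at each time. Over the 47 pairs lower at 7PM rho was 0.27 at 7PM and 0.31 at 7AM, with the same sign in 61.7% and 65.2% of 141. Members of the same direction on different scaffolds, which share the libraries but not the neighbourhood, gave rho of 0.10 at 7PM and 0.11 at 7AM for genes higher at 7PM, and 0.02 and 0.13 for genes lower at 7PM. All adjacent pairs gave 0.03 and 0.02, and opposite pairs 0.20 at 7PM and -0.20 at 7AM. The deviations of partners differed by a median of 0.17 at 7PM and 0.20 at 7AM on the log2 scale in pairs higher at 7PM. Members on different scaffolds differed by 0.26 and 0.21, and all adjacent pairs by 0.16 and 0.10. In pairs lower at 7PM the medians were 0.25 and 0.09, against 0.28 and 0.11 on different scaffolds. At 7AM the pairs higher at 7PM were thus hardly closer than members on different scaffolds, and less close than all adjacent pairs. The 3 deviations of a gene at 1 time sum to 0, so these values describe the libraries and carry no p.

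The likeness was lower for pairs higher at 7PM once pairs that did not remain without each library were set aside. Pearson's r was 0.70 at 7PM and 0.51 at 7AM over the 54 pairs higher at 7PM, and 0.23 at 7PM and 0.22 at 7AM over the 25 that remained. In the 25 pairs higher at 7PM that remained without each library in turn, rho was 0.31 at 7PM and 0.27 at 7AM, and in the 26 such pairs lower at 7PM it was 0.26 and 0.41. Pairs higher at 7PM whose numbers differ by up to 10 gave rho of 0.56 at 7PM and 0.52 at 7AM (31 pairs). Those whose numbers differ by more gave 0.17 and 0.13 (23 pairs). Some of the 23 have no other ID with the letter g between the partners, and some of the 31 have several. The split is thus by number and not by the genes between. The 31 pairs include those on scaffolds 30, 45, 65 and 451, which have 1 library far from the others of its time. The deviations of partners were not closer in size in the 31 pairs at 7AM, where they differed by a median of 0.22 on the log2 scale, against 0.16 in the 23 pairs. For pairs lower at 7PM, rho was 0.27 at 7PM and 0.45 at 7AM up to 10 (30 pairs) and 0.26 and 0.13 beyond it (17 pairs). Taken pair by pair over the 6 deviations, r was above 0.8 in 16 of 54 pairs higher at 7PM (29.6%) and 6 of 47 pairs lower at 7PM (12.8%), against 7.12% of all adjacent pairs and 8.37% and 8.7% of member pairs on different scaffolds. The 16 pairs include the 3 on scaffold 30 and those on scaffolds 45, 65 and 451. The pairwise r was below 0 in 16 of the 54 pairs higher at 7PM (29.6%) and 14 of the 47 pairs lower at 7PM (29.8%), against 47.9% of all adjacent pairs. On scaffold 209 (r = 0.99) the first gene had 11.6, 9.35 and 10.4 CPM at 7PM and 110.1, 125.7 and 101.1 CPM at 7AM. Its neighbour had 30.0, 25.2 and 26.9 CPM at 7PM and 100.9, 109.6 and 91.0 CPM at 7AM, so that both had the same order of replicates at both times. On scaffold 191 (r = -0.87) the first gene had 22.0, 21.3 and 24.7 CPM at 7PM and 89.2, 89.6 and 107.2 CPM at 7AM. Its neighbour had 3.79, 3.84 and 3.34 CPM at 7PM and 11.7, 13.1 and 10.8 CPM at 7AM, with its lowest value at each time in replicate 3, where the first gene was highest.

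**Figure D4:**
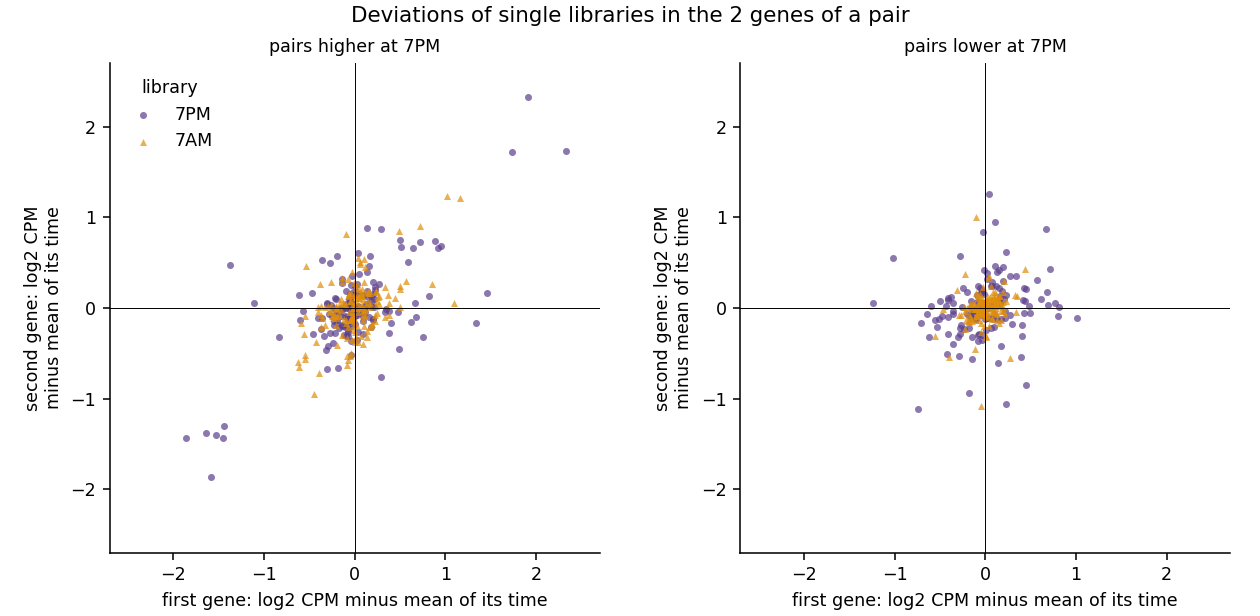
Deviation of log2 CPM in each library from the mean of its time, for the first (horizontal) and the second gene (vertical) of the 54 pairs higher at 7PM (left) and the 47 pairs lower at 7PM (right), with 7PM libraries as circles and 7AM libraries as triangles. The points at the upper right of the left panel, beyond 1.5 on both axes, are the 3 pairs of the run on scaffold 30 in 7PM replicate 3.

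A group of low members shared 1 replicate pattern on separate scaffolds. On scaffold 65 the first gene had 1.99, 9.42 and 11.1 CPM in 7PM replicates 1 to 3 and 4.20, 1.14 and 1.21 CPM in 7AM replicates 1 to 3. Its partner had 5.29, 22.4 and 23.6 CPM at 7PM and 10.0, 2.65 and 2.84 CPM at 7AM. In both genes the 7AM replicate 1 library was above 7PM replicate 1, so that the groups overlapped, although the means differed by 3.44-fold and 3.31-fold.

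The pair on scaffold 451 showed the same arrangement, with 3.61, 19.0 and 21.7 CPM at 7PM and 6.88, 2.24 and 2.42 CPM at 7AM for its first gene, as did the pair on scaffold 45 and the first gene on scaffold 815. These 7 genes, singled out after their values were seen, are the members in which 7PM replicate 1 was at least 1.5-fold below and 7AM replicate 1 at least 1.5-fold above both other libraries of its time. In all, 154 counted genes met that description, 35 of them ordered genes, and 30 of the 35 were 3-fold higher at 7PM. The pairs on scaffolds 65 and 451 remained in 1 of the 6 settings that leave out a library. On scaffold 65 the ratios were 2.72 and 2.78 without 7PM replicate 3. Leaving out 7AM replicate 2 gave 2.77 and 2.65, and leaving out 7AM replicate 3 gave 2.81 and 2.69. Without 7AM replicate 1 they were 6.37 and 6.21, but the first gene was then below 2 CPM at 7AM and outside the level window. The pair on scaffold 815 was lost whichever library was left out.

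In a pair of further runs 7PM replicate 1 stood far above the other 7PM libraries for the first gene alone. On scaffold 6 that gene had 33.1, 6.66 and 7.80 CPM at 7PM and 4.20, 4.06 and 6.14 CPM at 7AM, and its ratio of 3.30 was 1.58 without 7PM replicate 1. On scaffold 47 the first gene of the pair higher at 7PM had 66.7, 12.1 and 22.6 CPM at 7PM and 8.90, 9.05 and 14.3 CPM at 7AM, and its ratio of 3.14 was 1.69 without that library, 2.88 without 7AM replicate 1 and 2.90 without 7AM replicate 2. The partners did not share the high value: on scaffold 6 the second gene had 28.2, 20.1 and 27.8 CPM at 7PM, and on scaffold 47 it had 97.7, 114.1 and 119.0 CPM.

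**Figure D5:**
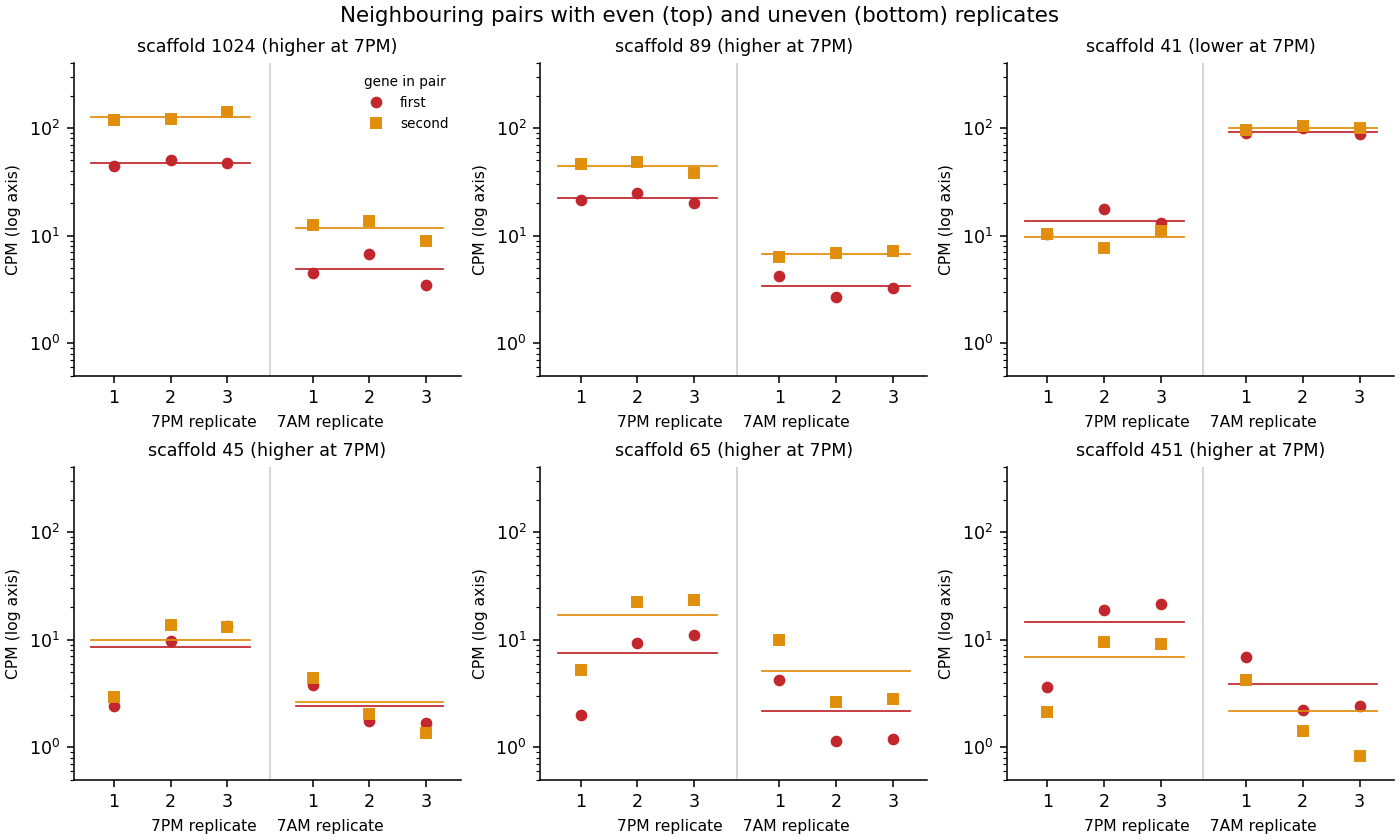
CPM (log axis) in 7PM replicates 1 to 3 (left of each panel) and 7AM replicates 1 to 3 (right) for the first and the second gene of 6 pairs, with horizontal lines at the means of the 3 libraries. In the upper row (scaffolds 1024, 89 and 41) the times are apart in every library, and in the lower row (scaffolds 45, 65 and 451) 7AM replicate 1 stands above 7PM replicate 1 for both genes.

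In the fit across all 17515 counted genes, edgeR's quasi-likelihood test called 95 of the 101 members higher at 7PM and 91 of the 92 members lower at 7PM at a Benjamini-Hochberg adjusted p under 0.05. Over all counted genes the shares called were 27.5% higher and 32.3% lower at 7PM. The CPM of the 2 times did not overlap for 91 of the 101 and 91 of the 92 members, against 30.8% of counted genes apart and higher at 7PM and 36.8% apart and lower. The members were chosen on this contrast, so neither count says more than that the rule was applied. The 6 members higher at 7PM that were not called lay on scaffolds 30, 65, 451 and 815, which the replicate patterns above describe, and the 1 lower member lay on scaffold 38, with 21.8, 11.8 and 59.5 CPM at 7PM and 87.9, 39.1 and 167.2 CPM at 7AM. Replicates of members higher at 7PM had a median coefficient of variation of 16.7% at 7PM and 13.9% at 7AM, and those of members lower at 7PM 16.6% and 9.19%, against 10.2% and 7.02% over all ordered genes. Levels differed as well. Median CPM at 7PM and 7AM was 38.7 and 6.56 for members higher at 7PM, 7.00 and 40.9 for members lower, and 20.4 and 21.6 over all ordered genes. Genes past 3-fold with no such neighbour were not set beside them for spread, so it is not shown to be particular to neighbouring pairs.

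Together the 101 members higher at 7PM held 5312, 6007 and 6187 CPM in 7PM replicates 1 to 3 and 1119, 1044 and 1158 CPM in 7AM replicates 1 to 3. The 92 members lower at 7PM held 990 to 1087 CPM at 7PM and 5288 to 5586 CPM at 7AM. Both sums separated the times without overlap, as the rule requires of their means. Among the 101 members higher at 7PM, replicates 1 to 3 were the highest library of their time for 13, 49 and 39 at 7PM and 31, 12 and 58 at 7AM. For the 92 members lower at 7PM these counts were 23, 37 and 32 at 7PM and 20, 51 and 21 at 7AM. Median deviations of members from the mean of their time, by library, ran from -0.11 to 0.08 on the log2 scale. Over all ordered genes they ran from -0.01 to 0.004.

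At the edge of the rule, the least changed members differed by 3.002-fold (scaffolds 386 and 168). The nearest pairs left out had a partner at 2.995-fold on scaffold 451 (higher at 7PM) and at 2.997-fold on scaffold 207 (lower at 7PM). Pairs whose less changed gene lay between 3- and 3.5-fold numbered 23 higher and 25 lower at 7PM, and 27 and 44 pairs with 1 gene past 3-fold had the other between 2.5- and 3-fold.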

How the data were processed

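Raw counts of reads for 35812 gene IDs in 6 libraries, deposited by the authors as a single table, were the starting point. The genome aligned to was that of Petunia axillaris, according to the series design. Tools listed in the submitters' processing notes are TopHat2, HTSeq and cutadapt. Their versions, the annotation, and how strand and multiply matching reads were handled, are not stated in the labels. Mitchell is a hybrid; reads from alleles unlike that genome may align less well, which was not tested.

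Rows with summed counts of 60 or more (17515) were scaled by TMM (edgeR 4.0.16, R 4.3.3). CPM are relative to the scaled library size. IDs with the letter t (2884, of which 0 had 60 counts) and 1 ID of another form were left out of the order. Fold changes are ratios of mean CPM unless credited to edgeR. Positive log2 values are higher at 7PM. Each SE was computed from the variances of log2 CPM (prior count 2) at both times. The test was edgeR's quasi-likelihood test (glmQLFit, glmQLFTest, 7PM against 7AM) with Benjamini-Hochberg adjustment and a threshold of 0.05. It and the pair rule were tested on simulated data. Alternatives were other scalings, limits, filters and orders, DESeq2 1.42.0, a replicate block and each library left out.

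The members and lists were chosen with earlier results of these data known. Since no table pairs IDs with names, 4 IDs are printed: the pair of each direction whose less changed gene changed the most. Other genes are given by scaffold. Gene lists by name were not applied. Precision is limited by 3 libraries per time. Single counts of members ran from 12 to 4467.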

Additional observations from a re-analysis of the deposited data

How the results depend on the processing

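The number of members depended on the limits of the rule. Members higher and lower at 7PM, main values 101 and 92 with 69 opposite pairs, numbered 286 and 379 (282 opposite pairs) at a limit of 2-fold, 33 and 28 (24) at 4-fold, 44 and 51 (45) with both means at least 5 CPM, 166 and 139 (92) with no upper limit on level, and 47 and 51 (36) where no other ID may lie between. With library totals they numbered 47 and 224, of which 35 and 85 were among the main members, and calls over all genes were 2825 higher and 9345 lower against 4813 and 5657. Geometric means gave 73 and 76 members, DESeq2 size factors 109 and 76, upper-quartile factors 99 and 100, and no filter on counts 101 and 96.

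Leaving out 1 library gave 90 to 101 members higher and 84 to 94 lower at 7PM, with 66 to 78 opposite pairs. Calls over all genes then were 4071 to 5210 higher and 4736 to 5233 lower, and calls among the members 88 to 98 higher and 91 to 92 lower. Whether the replicate numbers pair the samples is not stated in the labels. The correlation of gene deviations between 7PM and 7AM libraries of 1 number was -0.24, 0.10 and 0.10. By this measure 7PM replicates 1 and 2 correlated best with another number, and 7PM replicate 3 with its own. These values cannot settle a pairing, because the 3 deviations of a gene at 1 time sum to 0. With the replicate block 4503 genes were called higher and 5330 lower, and 89 and 92 members. The 4 genes printed by ID were chosen for the size of their change, so their direction under the alternatives, the same in all 48 values, is no sign of stability. The cause of these shifts was not tested.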
